A study of Mus musculus with 12 samples.

Results

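A set of 9 genes that mark the bile duct epithelium and the ductular reaction of injured liver was followed in 12 RNA libraries of liver tissue: the keratins Krt7, Krt8, Krt18, Krt19 and Krt23, the transcription factor Sox9, and Epcam, Spp1 and Prom1. They were taken by gene symbol, and all 9 were found among the 24532 genes of the deposited table. The mice were of the strain C57BL/6x129S6/SvEv, aged 20 wk, and fell into 3 groups of 4: controls labelled Het, Atp7b-/- animals (KO), and Atp7b-/- animals that received an LXR agonist in their feed (KO_drug). Atp7b encodes the copper exporter of hepatocytes whose loss causes Wilson disease, and LXR are the liver X receptors, nuclear receptors for oxysterols. By their labels, both knockout groups carry the same Atp7b-/- genotype and differ by the agonist. The labels do not name the agonist, its dose or its duration, and give neither sex nor litter nor which part of Atp7b was removed.

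Bile ducts are lined by cholangiocytes, which carry keratin 7 and keratin 19 in addition to the keratin 8 and keratin 18 pair that hepatocytes also make. In chronic liver injury, cords of small duct-like cells spread from the portal tracts, a change known as the ductular reaction. These cells express Sox9, the adhesion molecule Epcam, the secreted phosphoprotein osteopontin (Spp1) and the membrane protein prominin 1 (Prom1), but most of the 9 genes are not private to them. Injured hepatocytes raise Krt8, Krt18 and Krt23, and macrophages secrete osteopontin. In pieces of liver, more cells of a type and more RNA per cell cannot be told apart.

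Library totals ranged from 16535938 counts (KO 4) to 28329751 counts (KO 2), and 1 count was worth 0.0292 to 0.0552 CPM (counts per 1e+06 on library sizes scaled by TMM, which evens out composition). Atp7b stood at 9.90 to 16.2 in Het, 1.68 to 2.71 in KO and 1.27 to 3.49 CPM in KO_drug. Alb, the main hepatocyte product, was at 19010 CPM or more in every library. The genes with a count numbered 13858 to 14177 in the Het libraries, 16000 to 16430 in KO and 14210 to 14486 in KO_drug. KO 4, with the lowest total, had the most. Xist, the RNA of the inactive X chromosome of female cells, reached 81.7 CPM in KO 5 and 17.8 CPM in KO 6, against at most 0.425 CPM elsewhere. Ddx3y, a gene of the Y chromosome, gave 0.379 CPM in KO 5 and 64.3 CPM in KO 6, against 79.4 to 111 CPM elsewhere. KO 5 and KO 6 thus stood apart from the other libraries in both RNAs. Both belong to KO, so KO differed from Het and from KO_drug in these RNAs besides genotype or agonist. A part of sex in the comparisons was not tested beyond leaving both libraries out. Each result on the 9 genes was also computed without KO 5 and KO 6, and that value is given where it ends a call or moves a called fold by over 1.5 times. TMM put the median log2 change of all tested genes at 0.02 in KO vs Het and -0.02 in KO_drug vs KO, while scaling by total counts put it at 0.54 and -0.36.

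All 9 genes passed the filter on low counts. In KO vs Het, 6 of the 9 were called higher (edgeR's quasi-likelihood test, adjusted p under 0.05 over 13379 tested genes): Krt8, Krt18, Krt23, Epcam, Spp1 and Prom1. Of all tested genes 40.7% were called, 23.0% higher and 17.7% lower. Not 1 of the 9 was called lower, also at an unadjusted p under 0.05 and by DESeq2. The classical duct keratins Krt7 and Krt19, and Sox9, were not called. The median log2 change of the 9 was 1.59, against 0.02 over all tested genes. The 6 calls were made in all 21 alternative settings tried. Their Het and KO libraries did not overlap for any of the 6, which was also true of 39.3% of all tested genes.

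**Figure D1:**
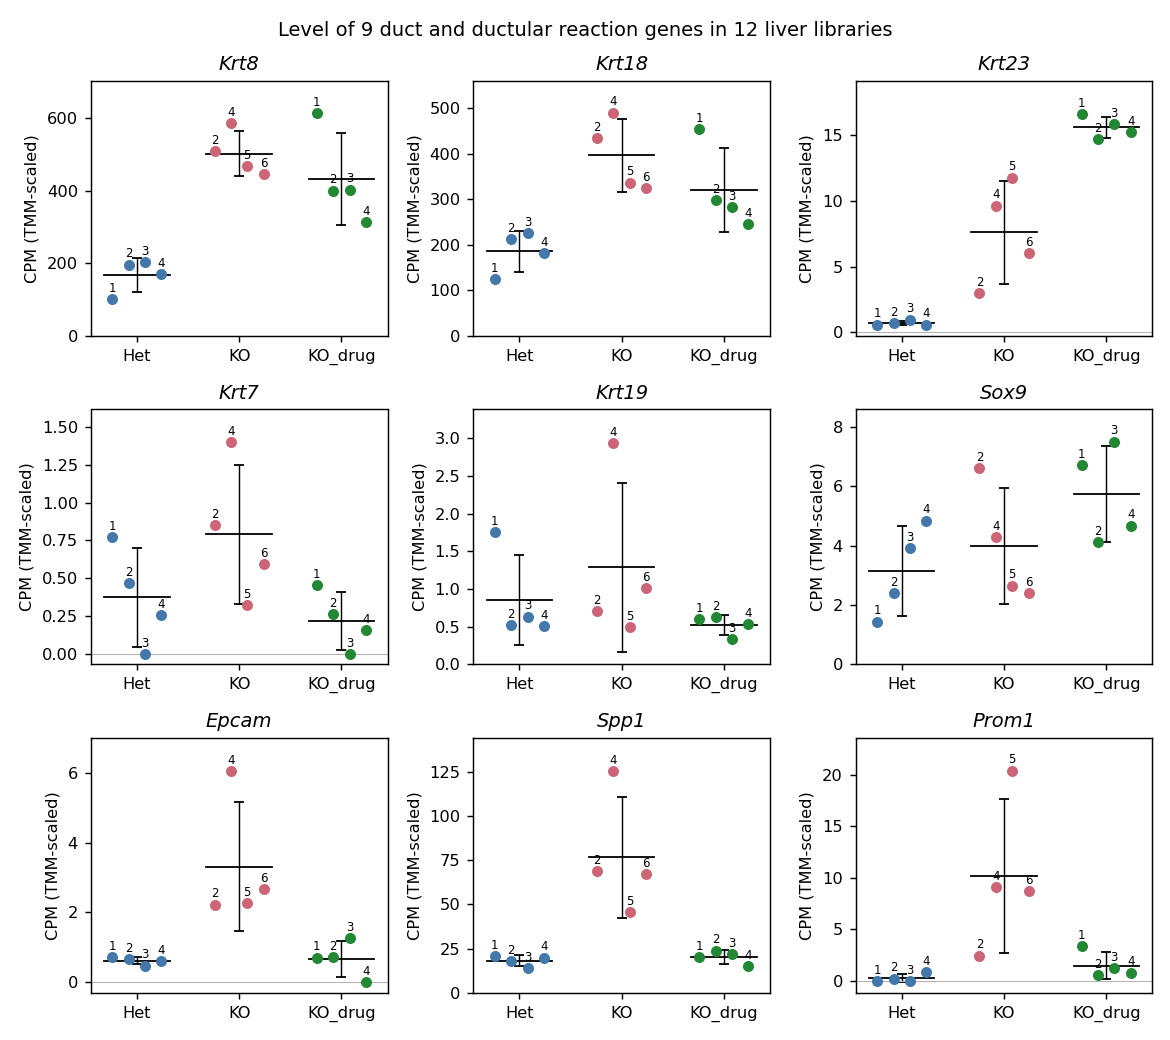
Level of each of the 9 genes in CPM (linear axes) in the 12 libraries, with the animal number beside each point, the group mean as a line and ± SD as a bar (n = 4 per group). Krt8, Krt18 and Krt23 stay above the Het libraries in KO_drug, Epcam and Spp1 stand near the Het level there, and Krt7, Krt19 and Sox9 overlap between Het and KO.

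Keratin 8 and keratin 18 form the intermediate filaments of simple epithelia as an obligate type II and type I pair. Their genes lie next to each other in one keratin cluster on chromosome 15 (mm10, Krt8 at 101996711 to 102004342 and Krt18 at 102028216 to 102032026), 23873 bases apart. The 250 bases before each start are shown because the pair had the most alike profiles of any 2 of the 9 genes (root mean square difference of 0.28 on the log2 scale over the 12 libraries). The sequences are RefSeq's, GRCm38.p6, 5′ to 3′ on the strand of the gene, with motif matches in capitals and positions counted from the start base, which is 0. Krt8 is at chr15:102004343-102004592 on the minus strand and Krt18 at chr15:102027966-102028215 on the plus strand.
Krt8: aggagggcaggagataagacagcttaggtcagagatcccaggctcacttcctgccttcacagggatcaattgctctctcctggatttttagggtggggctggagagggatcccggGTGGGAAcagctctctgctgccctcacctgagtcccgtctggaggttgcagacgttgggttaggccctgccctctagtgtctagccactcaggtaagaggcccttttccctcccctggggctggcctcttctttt
Krt18: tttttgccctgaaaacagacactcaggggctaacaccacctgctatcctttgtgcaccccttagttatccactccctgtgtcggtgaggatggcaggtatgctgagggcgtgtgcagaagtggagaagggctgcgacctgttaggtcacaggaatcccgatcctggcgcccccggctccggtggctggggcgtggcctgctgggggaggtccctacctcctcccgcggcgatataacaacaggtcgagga
The Krt8 window held 1 match of 6 motifs searched on both strands, the RBPJ letters GTGGGAA at position -135 from the start, which 5.42% of 32851 RefSeq promoter windows of this length hold. The Krt18 window held no match. The other motifs and the share of windows with each were the TATA box TATAAA (12.4%), the GC box GGGCGG (32.7%), the AP-1 letters TGANTCA (6.75%), the TEAD letters GGAATG (12.6%) and the SOX letters AACAAT (9.42%).

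Krt8 was at 102, 196, 202 and 169 CPM in Het 1 to 4, at 509, 586, 468 and 444 CPM in KO 2, 4, 5 and 6, and at 612, 400, 403 and 312 CPM in KO_drug 1 to 4. Every knockout library of either kind lay above every Het library, and KO_drug 1 was the highest of all 12. Krt8 rose 3.00-fold in KO (log2 1.59, SE 0.24, adjusted p = 0.000252) and stood 2.58-fold over Het in KO_drug (log2 1.37, SE 0.24, adjusted p = 0.00117). The 2 knockout groups overlapped, and their difference of -0.22 (95% interval -0.72 to 0.28, adjusted p = 0.545) did not pass the test. Limma called it lower on log2(FPKM + 0.1) and on log2(FPKM + 1) (log2 -0.61 in both, adjusted p = 0.0403 and 0.0405). An annotated pseudogene, Krt8-ps, has no row of its own in the table, so reads of it may be counted under Krt8.

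Krt18 stood at 125, 212, 226 and 182 CPM in Het 1 to 4, at 435, 490, 337 and 324 CPM in KO 2, 4, 5 and 6, and at 454, 299, 283 and 245 CPM in KO_drug 1 to 4. As for its partner, Het 1 was the lowest library and no Het library reached a knockout library. Krt18 rose 2.13-fold in KO (log2 1.09, SE 0.23, adjusted p = 0.00237). In KO_drug it stood 1.72-fold over Het (log2 0.78, SE 0.23, adjusted p = 0.0267), a call that was lost without Het 1 (adjusted p = 0.0591), Het 4 (0.0676) or KO_drug 1 (0.0966). KO_drug and KO differed by -0.31 (95% interval -0.80 to 0.18, adjusted p = 0.367). Total-count scaling called that difference (log2 -0.65, adjusted p = 0.0387), as did limma on log2(FPKM + 0.1) and on log2(FPKM + 1) (log2 -0.68 in both, adjusted p = 0.0274 and 0.0282).

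Because Krt8 moved further than Krt18, their ratio was formed within each library from the deposited FPKM (fragments per kilobase of transcript and per 1e+06 fragments), which corrects for gene length and does not depend on scaling between libraries. This ratio was chosen after the values were seen. Krt8 stood at 0.635 to 0.722 of Krt18 in the Het libraries, at 0.907 to 1.08 in KO and at 0.987 to 1.11 in KO_drug. Both knockout groups were clear of Het: the mean came to 0.692 ± 0.0398 in Het, 0.994 ± 0.0893 in KO and 1.04 ± 0.0485 in KO_drug (SD, n = 4 each). The exact two-sided permutation p was 0.0286 for KO vs Het and for KO_drug vs Het, the smallest that 4 against 4 can give (0.0429 adjusted over the 3 comparisons). Since the ratio was chosen on these same libraries, its p-values describe the separation and are no independent test of it. Any reads of Krt8-ps counted under Krt8 would enter the ratio as well. KO_drug and KO overlapped (difference 0.0498, exact permutation p = 0.314). Within KO the ratio was 0.907 and 0.927 in KO 2 and KO 4 and 1.08 and 1.06 in the Xist-bearing KO 5 and KO 6, and all 4 lay above the highest Het library.

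**Figure D2:**
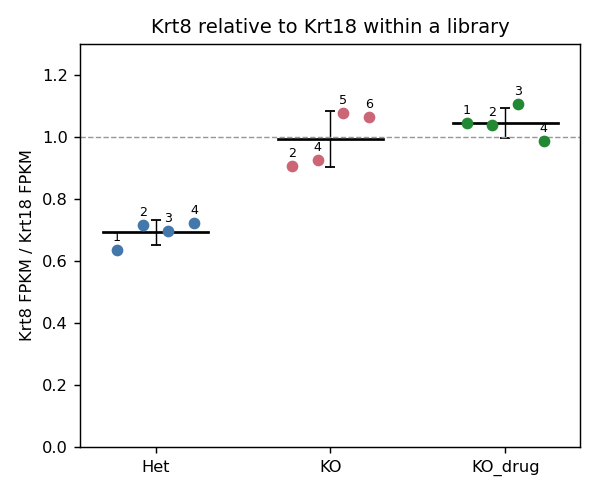
Ratio of Krt8 FPKM to Krt18 FPKM within each of the 12 libraries, with animal numbers, the group mean (line) and ± SD (bar, n = 4). Het libraries sit between 0.635 and 0.722 and all 8 knockout libraries at 0.907 or above, around the dashed line at 1.

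Krt23 encodes a small type I keratin that is hardly made in healthy liver. Its gene is on chromosome 11 (mm10, 99477973 to 99493120). The 250 bases before its start (chr11:99493121-99493370, minus strand) are set beside those of Spp1 (chr5:104434861-104435110, plus strand), since the 2 genes rose together in KO and stood on opposite sides of KO in KO_drug.
Krt23: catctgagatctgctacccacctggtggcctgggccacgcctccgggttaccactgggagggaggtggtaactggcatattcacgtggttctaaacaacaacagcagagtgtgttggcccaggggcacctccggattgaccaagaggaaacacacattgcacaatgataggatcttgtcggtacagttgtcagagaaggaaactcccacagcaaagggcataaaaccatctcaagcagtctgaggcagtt
Spp1: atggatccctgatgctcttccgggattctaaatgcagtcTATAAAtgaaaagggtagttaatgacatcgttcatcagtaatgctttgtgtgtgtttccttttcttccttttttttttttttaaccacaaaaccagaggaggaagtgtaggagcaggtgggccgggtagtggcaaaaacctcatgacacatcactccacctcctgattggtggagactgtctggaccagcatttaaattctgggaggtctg
The Krt23 window held none of the 6 motifs. The Spp1 window held 1 match of the TATA box letters, at position -211. Spp1 has a second window (chr5:104435942-104436191), not shown here, which held none of the 6 motifs.

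Krt23 was at 0.567, 0.676, 0.952 and 0.561 CPM in Het 1 to 4 (11 to 18 counts), at 2.96, 9.65, 11.8 and 6.00 CPM in KO 2, 4, 5 and 6, and at 16.6, 14.7, 15.9 and 15.2 CPM in KO_drug 1 to 4. The 3 groups did not overlap, and the agonist-fed livers were the highest (15.6 ± 0.804 CPM, against 7.60 ± 3.91 in KO and 0.689 ± 0.183 in Het, SD, n = 4 each). Krt23 rose 10.96-fold from Het to KO (log2 3.45, SE 0.38, adjusted p = 2.7e-05) and stood 22.5-fold over Het in KO_drug (log2 4.49, SE 0.39, adjusted p = 4.3e-06). It was the 1 gene of the 9 called higher in KO_drug than in KO (2.06-fold, log2 1.04, SE 0.32, adjusted p = 0.0359), where 19.8% of all tested genes were called, 8.80% higher and 11.0% lower. That call was lost in 10 of 21 alternatives, with the sign kept in all 21: it was lost without KO 6 (adjusted p = 0.0826) and without KO_drug 1 (0.0578), 2 (0.0604), 3 (0.0773) or 4 (0.0681), and under total-count scaling (log2 0.68, adjusted p = 0.122).

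The keratin pair of the bile duct itself was scarce. Krt7, on chromosome 15 (mm10, 101412403 to 101427806), was counted 15, 9, 0 and 5 times in Het 1 to 4, 29, 30, 11 and 14 times in KO 2, 4, 5 and 6, and 9, 5, 0 and 3 times in KO_drug 1 to 4. A count of 0 allows up to 0.159 CPM in Het 3 and 0.165 CPM in KO_drug 3, counting error only. The levels, 0.374 ± 0.328 in Het, 0.790 ± 0.460 in KO and 0.219 ± 0.190 CPM in KO_drug (SD, n = 4 each), overlapped between all groups. Its log2 difference was 1.05 in KO vs Het (95% interval -0.73 to 2.82, adjusted p = 0.330) and -1.80 in KO_drug vs KO (95% interval -3.68 to 0.09, adjusted p = 0.166). At these counts the intervals span a change of several fold in either comparison.

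Krt19, the type I partner of keratin 7 in ducts, is on chromosome 11 (mm10, 100140810 to 100145926). It was at 1.75, 0.520, 0.635 and 0.510 CPM in Het 1 to 4, at 0.703, 2.94, 0.496 and 1.01 CPM in KO 2, 4, 5 and 6, and at 0.605, 0.625, 0.331 and 0.531 CPM in KO_drug 1 to 4. Single libraries led their groups, Het 1 with 34 counts and KO 4 with 63, and Het and KO overlapped. The difference was 0.56 in KO vs Het (95% interval -0.70 to 1.83, adjusted p = 0.466) and turned to -0.21 without KO 4. In KO_drug vs KO it was -1.26 (95% interval -2.58 to 0.05, adjusted p = 0.162).

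Sox9, the transcription factor that sets duct cell fate in the developing liver, lies on chromosome 11 (mm10, 112782210 to 112787757). It was at 1.44, 2.39, 3.91 and 4.85 CPM in Het 1 to 4, at 6.62, 4.29, 2.65 and 2.41 CPM in KO 2, 4, 5 and 6, and at 6.71, 4.12, 7.50 and 4.67 CPM in KO_drug 1 to 4. KO 2 lay above the Het range and the other 3 KO libraries within it, and the difference of 0.35 (95% interval -0.50 to 1.20, adjusted p = 0.508) was -0.02 without KO 2. KO_drug was 0.87 above Het (95% interval 0.01 to 1.72, adjusted p = 0.143) and 0.52 above KO (95% interval -0.32 to 1.36, adjusted p = 0.372), and neither difference passed the test.

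Epcam, an epithelial adhesion molecule of cholangiocytes and liver progenitor cells, is on chromosome 17 (mm10, 87635979 to 87651127). Its level was 0.722, 0.676, 0.476 and 0.612 CPM in Het 1 to 4, 2.23, 6.06, 2.27 and 2.66 CPM in KO 2, 4, 5 and 6, and 0.706, 0.729, 1.27 and 0 CPM in KO_drug 1 to 4. KO 4 stood alone at the top, the other 3 KO libraries were close to each other, and no KO library overlapped with either of the other groups. Epcam rose 5.25-fold in KO (log2 2.39, SE 0.64, adjusted p = 0.00928). It was 4.85-fold lower in KO_drug than in KO (log2 -2.28, SE 0.63, adjusted p = 0.0241), a call that was lost in 4 of 21 alternatives. These were without KO 4 (log2 -1.82, adjusted p = 0.0859), without KO_drug 2 (0.0515), with only the 2 groups compared (0.0514) and with the animal number as a block (0.0813). KO_drug and Het differed by 0.12 (95% interval -1.33 to 1.57, adjusted p = 0.930). The 0 counts of KO_drug 4, where the other 3 libraries held 14, 14 and 23, allow up to 0.159 CPM.

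Spp1 encodes osteopontin, a matrix protein that binds integrins and CD44. The gene is on chromosome 5 (mm10, 104435111 to 104441053). It was at 20.6, 18.1, 13.9 and 19.9 CPM in Het 1 to 4, at 68.8, 125, 45.6 and 66.9 CPM in KO 2, 4, 5 and 6, and at 20.3, 23.9, 21.95 and 15.1 CPM in KO_drug 1 to 4. All 4 KO libraries were above all others, and the Het and KO_drug libraries shared one range. Spp1 rose 4.23-fold in KO (log2 2.08, SE 0.27, adjusted p = 8.2e-05) and was 3.77-fold lower in KO_drug than in KO (log2 -1.91, SE 0.26, adjusted p = 0.000832). Both calls were made in all 21 alternatives. KO_drug and Het differed by 0.17 (95% interval -0.40 to 0.73, adjusted p = 0.712).

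Macrophages are another source of osteopontin, and most of their markers moved the same way. Of 15 macrophage markers, 13 rose in KO vs Het, where 23.0% of all tested genes did, and 9 fell in KO_drug vs KO, where 11.0% did. The 2 not called in KO vs Het were Trem2, with a lower mean in KO (log2 -0.48, adjusted p = 0.678), and Gpnmb (log2 1.89, adjusted p = 0.124). Their summed level spanned 511 to 693 in Het, 1243 to 2667 in KO and 590 to 1291 CPM in KO_drug, and none of the 15 was at 0 throughout a group. Cd68, a lysosomal protein, was 2.82-fold and C1qc, a complement chain, 3.18-fold higher in KO than in Het. Within KO, the library with the most Spp1 was KO 4 and the one with the highest macrophage sum was KO 2, while KO 5 was lowest in both. The part of macrophages in the Spp1 result was not tested.

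Prom1, a pentaspan membrane protein known as CD133, is on chromosome 5 (mm10, 43993621 to 44102047). It was counted 0, 4, 0 and 17 times in Het 1 to 4, 84, 195, 700 and 207 times in KO 2, 4, 5 and 6, and 67, 10, 23 and 15 times in KO_drug 1 to 4. In CPM this was at most 0.867 in Het, 2.46, 9.09, 20.4 and 8.74 in the KO libraries, and 3.38, 0.521, 1.27 and 0.796 in the KO_drug libraries. KO 5 held the highest level, and KO_drug 1 reached above KO 2. Prom1 rose by 5.20 on the log2 scale in KO (SE 0.95, adjusted p = 0.000944), a value that was 7.08 without Het 4, 4.61 without KO 5 and 4.32 without KO 5 and KO 6. In KO_drug it was 6.79-fold lower than in KO (log2 -2.76, SE 0.78, adjusted p = 0.0266). That call was lost in 8 of 21 alternatives, among them those without KO 4 (adjusted p = 0.0501), KO 5 (log2 -2.18, adjusted p = 0.0783), KO 5 and KO 6 (log2 -1.90, adjusted p = 0.172), and KO_drug 2 (0.0665), 3 (0.0726) or 4 (0.0737). Without KO_drug 1 it was called at -3.56. KO_drug stood 2.44 above Het (95% interval 0.34 to 4.55, adjusted p = 0.0949), which was called in 1 of 21 alternatives, that without Het 4 (log2 4.31, adjusted p = 0.0281).

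Between KO_drug and KO, 1 of the 9 genes was thus called higher, Krt23, and 3 lower, Epcam, Spp1 and Prom1 (1 and 2 by DESeq2, which did not call Prom1, and 1 and 2 without KO 5 and KO 6), with a median log2 change of -1.26 against -0.02 over all tested genes. That median was -0.48 without KO 4, where 1 of the 9 was called lower, and -1.73 without KO 5 and KO 6. Krt23, Epcam and Spp1 had no overlap between these groups, as did 23.9% of all tested genes. In KO_drug vs Het, Krt8, Krt18 and Krt23 were called higher, where 21.4% of all tested genes were called, 13.0% higher and 8.45% lower. Those 3 had no overlap between KO_drug and Het, as did 24.6% of all tested genes. Not 1 of the 9 was called lower there, also at an unadjusted p under 0.05 and by DESeq2, and 5 were higher at an unadjusted p under 0.05. The 3 comparisons share libraries in pairs, so their values are set side by side and are not independent of each other.

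**Figure D3:**
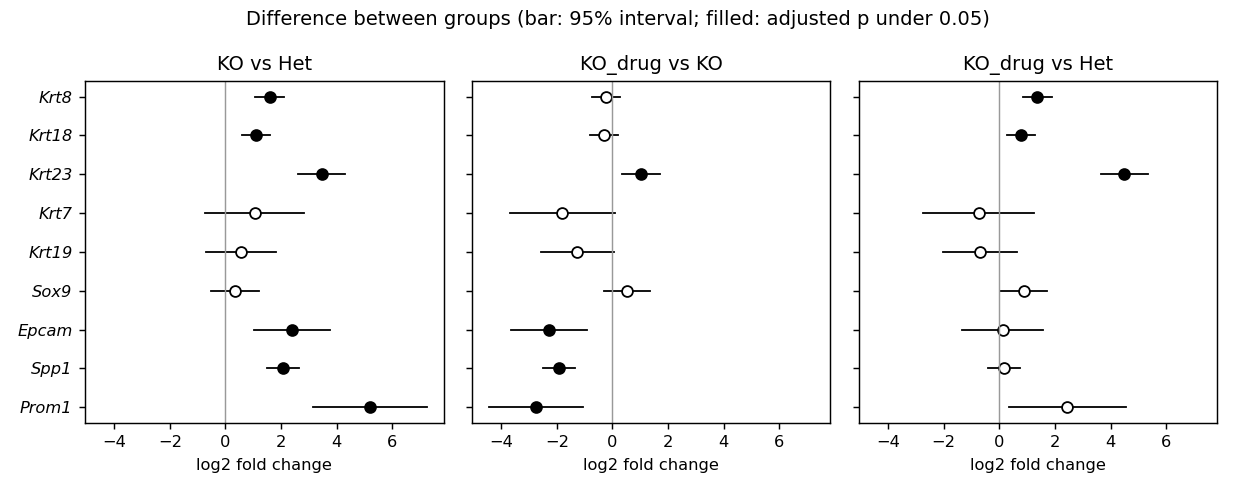
Log2 fold change of each gene in the 3 comparisons, with the 95% interval as a bar and filled points for an adjusted p under 0.05 (edgeR, n = 4 per group). Krt8, Krt18 and Krt23 are filled in both comparisons with Het, while Epcam and Spp1 lie right of 0 in KO vs Het, left of it in KO_drug vs KO and near it in KO_drug vs Het.

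Levels were compared between genes on the deposited FPKM, which is per length. In Het the order was Krt18 (89.0 ± 12.9 FPKM), Krt8 (61.9 ± 11.5, with no overlap), Spp1 (8.76 ± 2.36), then Sox9, Krt19, Krt23, Epcam, Krt7 and Prom1, all with means from 0.0463 to 0.506 FPKM. Each of those last 6 overlapped with its neighbour in the order. In KO, Krt18 (282 ± 68.4 FPKM) and Krt8 (276 ± 47.5 FPKM) overlapped and Spp1 followed at 53.8 ± 26.6 FPKM (SD, n = 4 each). Krt23 (4.93 ± 2.67 FPKM), Prom1 (2.74 ± 2.03) and Epcam (1.60 ± 0.990) came next, ahead of Sox9 (0.951 ± 0.468), Krt19 (0.931 ± 0.873) and Krt7 (0.484 ± 0.311), and each of these neighbours overlapped. In KO_drug the first 4 were Krt8 (185 ± 60.9 FPKM), Krt18 (178 ± 57.8), Spp1 (10.96 ± 1.83) and Krt23 (7.83 ± 0.654), then Sox9 (1.06 ± 0.274), Prom1 (0.310 ± 0.281), Krt19 (0.270 ± 0.0848), Epcam (0.245 ± 0.181) and Krt7 (0.106 ± 0.0933). Krt8 and Krt18 overlapped there, and so did Spp1 and Krt23.

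Of 50 other keratin genes in the table, 27 had no count in any library and 2, Krt20 and Krt80, passed the filter. Krt20, a type I keratin of gut and urothelium, had no count in Het, which allows up to 0.0389 CPM over the group. It was at 0.205 to 2.65 CPM in KO and 0 to 1.56 CPM in KO_drug, and was called higher in KO vs Het (adjusted p = 0.0150), a call that was lost without KO 5 and KO 6. Krt80, a type II keratin of differentiating epithelia, was at 0.273 ± 0.188 in Het, 1.23 ± 0.698 in KO and 0.168 ± 0.238 CPM in KO_drug (SD, n = 4 each). It missed the threshold in KO vs Het (adjusted p = 0.0668) and fell in KO_drug vs KO (log2 -2.82, adjusted p = 0.0493), a call that was lost without KO 4.

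Genes of the duct lineage beyond the 9 went both ways. Of 14 tested biliary transcription factors and progenitor genes, 7 rose and 4 fell in KO vs Het, with a median of 1.58, and 6 fell in KO_drug vs KO. Of all tested genes, 23.0% rose and 17.7% fell in KO vs Het, and 11.0% fell in KO_drug vs KO. St14, a membrane serine protease of epithelia, went from 0.274 ± 0.217 CPM in Het to 6.90 ± 4.07 CPM in KO (24.7-fold, adjusted p = 0.000122) and stood at 0.467 ± 0.264 CPM in KO_drug. Elf3, an epithelial ETS factor, went from 0.428 ± 0.162 to 7.82 ± 4.03 CPM (18.1-fold, adjusted p = 0.000960) and was 3.17 lower in KO_drug than in KO (log2 -3.17, adjusted p = 0.00853). Among those that fell were Onecut1 (log2 -0.93), Onecut2 (-0.89) and Foxa2 (-1.50), transcription factors that hepatocytes or their precursors also use, named here after their values were seen. Total-count scaling called 9 of the 14 higher and 1 lower, and the counts were 8 and 1 without KO 5 and KO 6 and 7 and 2 without KO 4.

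Among 17 tested genes of duct secretion, cilium and membrane, 7 rose and 1 fell in KO vs Het (14 and 1 under total-count scaling). Of all tested genes 23.0% and 17.7% did. In KO_drug vs KO 4 of the 17 fell (9 under total-count scaling), where 11.0% of all tested genes did. Slc10a2, the bile acid importer of the duct and ileum, was the 1 that fell, from 106 ± 18.7 CPM in Het to 24.4 ± 6.02 CPM in KO (log2 -2.11, SE 0.30, adjusted p = 0.000154), and stood at 29.1 ± 12.9 CPM in KO_drug. The duct keratins Krt7 and Krt19 were at means of 0.374 and 0.854 CPM in Het, and which cells held Slc10a2 was not tested. Ggt1, gamma-glutamyltransferase, was at 0.0383 ± 0.0765 in Het, 2.41 ± 2.35 in KO and 0.958 ± 0.472 CPM in KO_drug (adjusted p = 0.000714 for KO vs Het).

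Notch signalling from portal cells directs duct formation, and YAP with TEAD factors drives ductular growth. Of 11 tested Notch genes, 1 rose and 2 fell in KO vs Het (3 and 0 under total-count scaling, 1 and 0 without KO 5 and KO 6). Of all tested genes 23.0% rose and 17.7% fell there. Rbpj, the DNA-binding partner of Notch, was 1.33-fold higher (log2 0.41, SE 0.11, adjusted p = 0.0118). Heyl, a Notch target, fell from 3.38 ± 0.427 to 1.59 ± 0.289 CPM (log2 -1.08, adjusted p = 0.0125). In KO_drug vs KO edgeR called 0 of the 11, with 1 lower at an unadjusted p under 0.05 and 1 lower by DESeq2. Of 10 tested YAP and TEAD genes 4 rose in KO vs Het, where 23.0% of all tested genes did. In KO_drug vs KO 2 of the 10 fell (6 under total-count scaling), where 11.0% of all tested genes did. Whether the Notch or the YAP and TEAD list departs from these shares was not tested. Ajuba, a LIM protein that restrains the Hippo kinases, was 5.06-fold and Axl, a receptor tyrosine kinase, 2.22-fold higher in KO than in Het, and both fell in KO_drug vs KO (log2 -1.17 and -1.25).

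**Figure D4:**
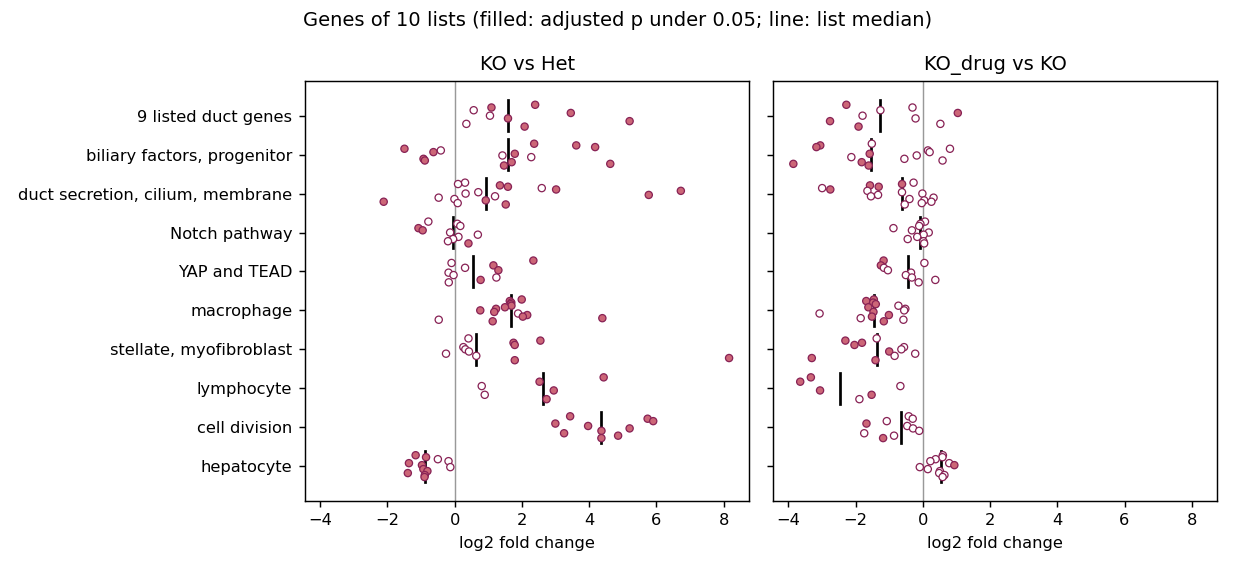
Log2 fold change of each tested gene of 10 lists in KO vs Het and KO_drug vs KO, with filled points for an adjusted p under 0.05 and the list median as a black line. The medians of the 9 duct genes are 1.59 and -1.26, beside 1.67 and -1.46 for macrophage markers and -0.89 and 0.54 for hepatocyte markers. Without KO 4 the medians in KO_drug vs KO are -0.48 for the 9 duct genes and -1.30 for macrophage markers.

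Markers of other cells moved in the same comparisons, where 23.0% of all tested genes rose in KO vs Het and 11.0% fell in KO_drug vs KO. Stellate and myofibroblast markers rose in 5 of 11 tested members in KO vs Het and fell in 6 in KO_drug vs KO, and their summed level spanned 190 to 307 in Het, 263 to 457 in KO and 169 to 227 CPM in KO_drug, with Timp1 at 0 throughout Het. Vim, a mesenchymal filament protein, was 3.45-fold and Col1a2, a collagen I chain, 3.36-fold higher in KO than in Het. Lymphocyte markers rose in 4 of 6 in KO vs Het and fell in 4 of 6 in KO_drug vs KO (2 without KO 4, 3 without KO 5 and KO 6), with Cd3d and Cd8a, T cell surface chains, at 1.52 ± 0.839 and 2.23 ± 1.21 CPM in KO. Their sum spanned 3.17 to 6.19 in Het, 7.90 to 20.9 in KO and 3.38 to 6.84 CPM in KO_drug, with Klrb1c at 0 throughout Het and KO_drug. Their part in the results on Epcam, Spp1 and Prom1 was not tested.

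All 10 cell division genes rose in KO vs Het, where 23.0% of all tested genes did. In KO_drug vs Het 8 of the 10 were called higher, against 13.0% of all tested genes. In KO_drug vs KO, where 11.0% of all tested genes fell, 2 of the 10 cell division genes fell (4 under total-count scaling, 1 without KO 4, 0 without KO 5 and KO 6). Their summed level spanned 6.61 to 18.0 in Het, 145 to 239 in KO and 79.4 to 187 CPM in KO_drug, and their part in the keratin results was not tested. Cdc20, which starts anaphase, was at 0.647 ± 0.297, 24.04 ± 5.94 and 19.7 ± 4.71 CPM in Het, KO and KO_drug, and Aurka, a mitotic kinase, at 1.18 ± 0.140, 12.8 ± 2.98 and 9.56 ± 1.29 CPM. Hepatocyte markers fell in 9 of 12 in KO vs Het (4 lower and 2 higher under total-count scaling), where 17.7% of all tested genes fell. The summed level of these markers was 78620 to 138100 in Het, 38370 to 70600 in KO and 70820 to 89060 CPM in KO_drug. Hnf4a, the hepatocyte nuclear receptor, was at 838 ± 79.3 in Het, 438 ± 23.9 in KO and 486 ± 63.4 CPM in KO_drug. Serpina1a, alpha-1 antitrypsin, fell by 1.40 on the log2 scale in KO vs Het. Of 9 pancreatic acinar markers, 7 had no count in any Het library, 7 had none in any KO_drug library and 2 had none in any KO library. The traces found in KO alone reached at most 0.464 CPM (Amy2b). The filter was passed by 2: Cela1 fell by 1.22 in KO vs Het and Cela2a rose by 1.19, the latter not called without KO 5 and KO 6. Cela1 stood at 31.1 ± 13.4 CPM in Het, the group where 7 of the 9 had no count, and which cells held it was not tested.

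The genes closest in profile to each member were sought among 11694 genes, by the root mean square difference of log2 CPM over the 12 libraries after centring each gene on its mean. For Krt8 (whose own spread by this measure was 0.78) they were Reep4, Aim1 and Polk at 0.24 to 0.25, and for Krt18 (spread 0.56) Cast, Pdlim1 and Fuca2 at 0.20 to 0.22. Krt23 (spread 1.96) was nearest to Fermt1, Dntt and Cenpw at 0.40 to 0.51. Fermt1, the kindlin of epithelial cells, was at 0.610, 6.48 and 13.7 CPM in Het, KO and KO_drug, and Dntt, terminal deoxynucleotidyl transferase, at 0.505, 4.83 and 13.6 CPM. Spp1 (spread 0.97) was nearest to Tm6sf1, Loxl4 and H2-DMb1 at 0.31 to 0.33, and Epcam (spread 1.91) to Pyhin1, Ptpn18 and Mmgt2 at 0.64 to 0.93. Sox9 (spread 0.68) was nearest to Dll1, a Notch ligand, at 0.34, followed by Jund and Zfp418 at 0.41, and Krt19 (spread 0.81) to B9d2, Cav1 and Tagln at 0.38 to 0.39. For Krt7 (spread 1.82) the nearest were Pycard, Hdac9 and Clec7a at 0.87 to 1.06, and for Prom1 (spread 3.02) Cenpf, Fancd2 and Sybu at 1.15 to 1.17. A count of 0 enters log2 CPM through an added prior count of 0.5, which sets that library far below the others. Such counts were those of Epcam in KO_drug 4, Krt7 in Het 3 and KO_drug 3, and Prom1 in Het 1 and Het 3. How far the likeness found for Epcam, Krt7 and Prom1 rests on those libraries was not tested.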

How the data were processed

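RNA from frozen liver pieces of 12 mice was sequenced after a stranded Illumina total RNA preparation, per the labels' protocols. The submitters' processing notes name StringTie 2.1.3b, FastQC 0.11.7 and build mm10. The sources used here do not give the aligner, the annotation release or the strand setting of the counting. In 1 table the authors deposited whole read counts per gene, not normalized, and an FPKM per gene and library, per the file headers. The table has 3 columns without a name, which are not used here.

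The filterByExpr rule (count of 10, total of 15) left 13379 genes to test and set 11153 aside. All 12 libraries entered 1 edgeR 4.0.16 quasi-likelihood fit in R 4.3.3, with TMM scaling and 1 mean per group. Tests were two-sided, with Benjamini-Hochberg adjustment over all tested genes and calls at 0.05. Intervals are 95% intervals of the log2 change. P-values measure the spread between libraries taken as separate animals. That assumption was not tested for KO 6, where Xist and Ddx3y were both found. Alternatives were 2 other scalings, no filter, DESeq2 1.42.0, limma 3.58.1 on log2(FPKM + 0.1) and log2(FPKM + 1), only the 2 groups compared, the animal number as a block, each library left out, and KO 5 with KO 6 left out. The fit was tested on simulated counts. Members and lists were chosen with earlier results of these data known. All 9 members were named, and from each other list the 2 called in KO vs Het with the smallest adjusted p. The 9 members matched RefSeq by gene number, and 7 had a promoter entry (not Krt19 or Sox9). The result of 1 listed gene is not reported here.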

Additional observations from a re-analysis of the deposited data

Results flagged for a closer look

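A pair of values stood apart from the other 3 libraries of their group by Dixon's test at the 95% level, out of 30 groups of 4 tested (the 9 genes and the Krt8 to Krt18 ratio), where chance flags about 1 group in 20. Krt19 in Het 1 was at 1.75 CPM, with the other Het libraries at 0.510 to 0.635 CPM, and the gap took 0.900 of the range. Epcam in KO 4 was at 6.06 CPM, with the other KO libraries at 2.23 to 2.66 CPM, and the gap took 0.887 of the range. Het 1 was also the highest Het library for Krt7 (0.773 CPM), Epcam (0.722 CPM) and Spp1 (20.6 CPM) and the lowest for Krt8, Krt18 and Sox9. KO 4 was also the highest KO library for Krt7 (1.40 CPM), Krt19 (2.94 CPM), Spp1 (125 CPM), Krt8 (586 CPM) and Krt18 (490 CPM).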

How the results depend on the processing

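In KO vs Het, the 6 calls were made under all 21 alternatives, and limma on log2(FPKM + 1) also called Krt7 (log2 0.34, adjusted p = 0.0481). Leaving out 1 library gave Sox9 a difference of -0.0179 (without KO 2) to 0.62 and Krt19 one of -0.21 (without KO 4) to 1.18. In KO_drug vs KO, total-count scaling, limma on log2(FPKM + 0.1) and on log2(FPKM + 1) called 4255, 4781 and 4923 genes in place of 2654, and of the 9 genes they called 0 higher and 4, 6 and 6 lower in place of 1 and 3. With only the 2 groups compared 0 of the 9 were called higher and 2 lower, and Epcam was not called. Leaving out 1 library gave 1599 to 2994 genes, with 0 to 1 of the 9 higher and 1 to 3 lower. The lowest gene counts came without KO_drug 3 (1599) and without KO 4 (1639), and 1 of the 9 was called lower without KO 4 or KO_drug 2. Total-count scaling moved the share of calls that were higher from 56.5% to 93.8% in KO vs Het, from 44.4% to 8.32% in KO_drug vs KO and from 60.6% to 83.0% in KO_drug vs Het. In KO_drug vs Het, Epcam turned to -0.0209 with limma on log2(FPKM + 0.1), and leaving out 1 library gave -0.37 (without KO_drug 3) to 0.53. Fold changes from log2(FPKM + 1) were smaller for low genes (Prom1 1.67 in KO vs Het), by construction of the pseudocount. Where no construction is named, the cause was not tested.

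Nothing states that equal animal numbers share anything. The deviations of same-numbered libraries from their group means correlated at -0.01 to 0.12, and 3 of 4 Het libraries correlated best with the KO_drug library of their number. With the number as a replicate block, KO_drug vs KO gave 1741 genes, with 0 of the 9 higher and 1 lower (Spp1), Sox9 turned to -0.0289, and Krt18 in KO_drug vs Het was not called (adjusted p = 0.0704). The 6 calls in KO vs Het were made with the block.

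Depth limits Krt7, Krt19, Krt23, Epcam and Prom1, which had 0 to 34 counts in each Het library. More genes had a count in each KO library than in any other library, so rises from near 0 in KO were not particular to duct genes. Of the 50 other keratins, 48 had no count throughout Het, 28 throughout KO and 43 throughout KO_drug. The cause was not tested.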
